A study of Mus musculus with 6 samples.

Results

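The dual-specificity phosphatases Dusp1, Dusp4, Dusp5 and Dusp6, the Sprouty genes Spry1, Spry2 and Spry4 and the Spred genes Spred1, Spred2 and Spred3 encode feedback inhibitors of the ERK pathway. These 10 genes were taken by symbol from a table of 35975 rows with counts, and all 10 had a row. All 10 also passed the filter on low counts, among 13573 genes tested. RNA sequencing was done on interscapular brown adipose tissue, the heat-producing depot between the shoulder blades, of mice on a C57BL/6 background. In Olfm4CKO mice, Cre driven by the Ucp1 promoter removes Olfm4 flox/flox alleles from brown adipocytes. Mice labelled Ctrl are the comparison, and the labels do not give their alleles or whether they carry Cre. Because the titles of all 6 samples end in Olfm4 WT, Olfm4CKO ones included, the genotype field was used for grouping. Age, sex, housing temperature and any pooling of animals are not given in the labels. The comparison asks how Olfm4 loss in brown adipocytes bears on the depot, in a series whose title names Schwann cells and MEK/ERK signalling.

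ERK is activated through RAS, RAF and MEK downstream of growth factor receptors, and also downstream of beta-adrenergic receptors in brown adipocytes. Active ERK switches on the genes of its own inhibitors. DUSP enzymes remove phosphate from both the threonine and the tyrosine of the activation loop of MAP kinases. Sprouty and Spred proteins act higher up, between the receptor and RAF, and Spred proteins bring the RAS inactivator neurofibromin to the membrane. Transcript levels of such inhibitors are often used as a readout of ERK output, but they report neither protein nor ERK phosphorylation. In a whole depot, fewer cells of a type and less RNA per cell cannot be told apart.

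Of 3 libraries per group in the labels, 2 per group carry counts that follow the gene names, Olfm4CKO replicates 1 and 2 and Ctrl replicates 1 and 2. They held 15547569 and 15346705 counts in Olfm4CKO and 15953676 and 17309325 counts in Ctrl. Both replicate 3 columns had a Spearman correlation between -0.0209 and -0.0156 with the other libraries over rows, and no gene value was taken from them. Olfm4 had 0 counts in all 4 libraries, which allows up to 0.196 CPM in Olfm4CKO and 0.188 CPM in Ctrl by counting error, so it cannot check the genotype labels. The brown adipocyte transcripts Ucp1 and Cidea were abundant in every library, with Ucp1 at 4815 and 2944 normalised CPM (read counts scaled to library size) in Olfm4CKO and 5885 and 10210.0 CPM in Ctrl. The Y-linked transcript Ddx3y had 0 counts in both Olfm4CKO libraries and in Ctrl replicate 2, and 1300 counts in Ctrl replicate 1, so sex was not balanced between the groups. The female transcript Xist had 215 and 207 CPM in Olfm4CKO and 0 and 49.5 CPM in Ctrl replicates 1 and 2. Ctrl replicate 2 was thus below the Olfm4CKO libraries in Xist. Separate mice are not stated for the libraries. Ddx3y shows that the Ctrl libraries did not come from the same animal, but nothing here shows this for the Olfm4CKO libraries. The p-values measure only the spread between these samples, which may be technical in Olfm4CKO.

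Promoter sequence is shown for Dusp1, Dusp5 and Dusp6, the nuclear and cytoplasmic phosphatases that stimulated cells induce, to place them beside the levels that follow. The RefSeq promoter table of GRCm38.p6 held 8 of the 10 genes, without Dusp4 and Spry4. Each run below is the 250 bases before the transcription start, 5′ to 3′ on the gene's strand. Capitals mark a full cAMP response element (TGACGTCA) or a CArG box, the binding site of serum response factor, searched on both strands. The Dusp1 run is chr17:26508473-26508722 (minus strand), the Dusp5 run chr19:53528895-53529144 (plus strand) and the Dusp6 run chr10:99262981-99263230 (plus strand).
Dusp1: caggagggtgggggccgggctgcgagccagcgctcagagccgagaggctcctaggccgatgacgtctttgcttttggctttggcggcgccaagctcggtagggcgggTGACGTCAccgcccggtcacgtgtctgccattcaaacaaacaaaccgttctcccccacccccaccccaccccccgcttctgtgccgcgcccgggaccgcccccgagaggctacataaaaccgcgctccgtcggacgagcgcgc
Dusp5: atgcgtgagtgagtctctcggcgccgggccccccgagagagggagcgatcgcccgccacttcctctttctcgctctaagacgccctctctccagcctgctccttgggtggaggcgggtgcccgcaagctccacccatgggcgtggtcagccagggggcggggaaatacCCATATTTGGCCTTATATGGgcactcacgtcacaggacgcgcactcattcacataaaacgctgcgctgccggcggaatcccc
Dusp6: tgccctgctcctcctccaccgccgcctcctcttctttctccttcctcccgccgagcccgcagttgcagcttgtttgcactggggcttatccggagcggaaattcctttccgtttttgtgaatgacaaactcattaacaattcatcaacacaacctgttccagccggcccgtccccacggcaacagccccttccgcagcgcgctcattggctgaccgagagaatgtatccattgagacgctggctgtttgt
Dusp1 held 1 full cAMP response element, which starts 143 bases before the transcription start, and Dusp5 held 2 CArG boxes, which start 82 and 72 bases before it. In this window no other of the 8 promoters held a full cAMP response element or a CArG box. Among all 32851 promoter windows of the same length, 1.55% held the first motif and 1.47% the second. Neither AP-1 letters (TGAGTCA or TGACTCA) nor ETS letters (CCGGAAG or CTTCCGG) were found in any of the 8 windows, against 4.46% and 6.91% of all windows. These are matches of letters only, and binding was not measured.

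Set against their length, Dusp4, Dusp1 and Dusp6 were the most abundant of the 10 transcripts. Over the 4 libraries, mean levels per length (RPKM, normalised CPM per kilobase of exon) were 44.0 for Dusp4, 40.9 for Dusp1 and 20.3 for Dusp6, followed by 9.09 for Spry1, 6.73 for Spred2, 5.29 for Spry4, 4.73 for Spry2, 3.41 for Spred1, 1.06 for Dusp5 and 0.147 for Spred3. With the union of a gene's exons as the length, the order of the 10 genes was identical in both Ctrl libraries. It ran from Dusp4, Dusp1 and Dusp6 at the top to Dusp5 and Spred3 at the bottom. In Olfm4CKO replicate 2, Dusp4 was also the first. In Olfm4CKO replicate 1 it came after 3 others, at 9.31 RPKM, behind Dusp1 at 68.2 RPKM, Dusp6 at 12.3 RPKM and Spry1 at 12.2 RPKM. Dusp1 and Dusp4 cannot be ordered, since their ranges overlapped and Dusp1 came first at 58.5 RPKM when the longest transcript was used as the length. From Spry1 through Spred2, Spry4 and Spry2 to Spred1, each range also overlapped the next over the 4 libraries. Dusp5 and Spred3 lay below every other member in each library.

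**Figure D1:**
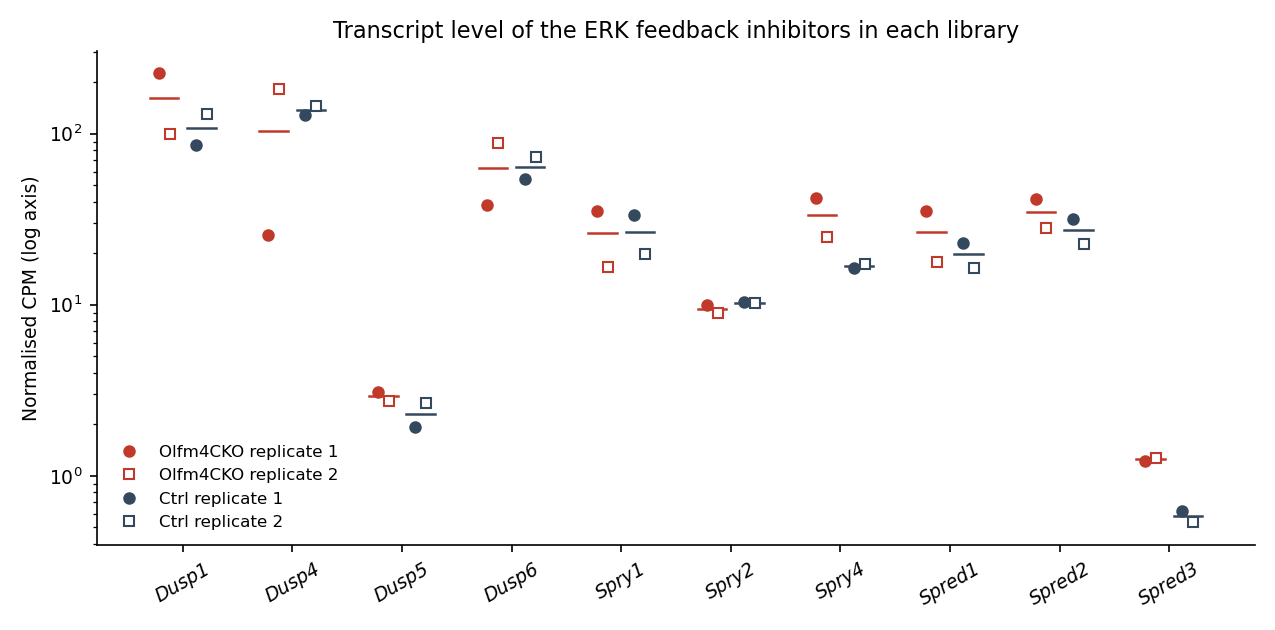
Normalised CPM (log axis) of the 10 ERK feedback inhibitors in each library, with Olfm4CKO in red left of Ctrl in blue, circles for replicate 1, squares for replicate 2 and a line at the mean of each group. Dusp4 in Olfm4CKO replicate 1 stands at 25.5 CPM, below the other 3 libraries, and both Olfm4CKO libraries lie above both Ctrl libraries for Spry4 and Spred3.

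No member passed the threshold between Olfm4CKO and Ctrl. In edgeR's quasi-likelihood test, 0 of the 10 had a Benjamini-Hochberg adjusted p below 0.05, as had 0% of all 13573 genes tested, and every member's edgeR adjusted p was 0.9998. At an unadjusted p below 0.05 there was 1 member, Spry4, against 2.11% of all genes tested. DESeq2 also called 0 of the 10, against 0.00737% of all genes, which is 1 gene, and limma-voom called 0 of the 10 and 0 of all genes. The groups did not overlap for 3 members higher in Olfm4CKO, Spry4, Spred3 and Dusp5, against 11.8% of all genes, and for 1 member lower in Olfm4CKO, Spry2, against 12.8%. In either direction this is 4 of 10, against 24.6% of all genes. Spred3 passed the filter on low counts only through Olfm4CKO, so its place among them adds no support. Of the 10 log2 fold changes 6 lay above 0, against 48.6% of all genes, with a median of 0.34 against -0.01. The 95% intervals were wide. That of Spred3 ran from 0.72-fold to 6.4-fold and that of Dusp4 from 0.28-fold to 2.06-fold.

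Dusp1 encodes a nuclear phosphatase of p38, JNK and ERK that cells induce within minutes of stress, glucocorticoid or cAMP signals (chromosome 17, 26505591 to 26508472, GRCm38). It had 226 and 99.5 CPM in Olfm4CKO replicates 1 and 2 and 86.3 and 130.1 CPM in Ctrl replicates 1 and 2. Olfm4CKO replicate 1 was the highest library, and Olfm4CKO replicate 2 lay between both Ctrl libraries, so the groups overlapped. The log2 fold change was 0.59 ± 0.43 (SE, n = 2 each, edgeR adjusted p = 0.9998), with a 95% interval of 0.77-fold to 2.9-fold. Leaving out Olfm4CKO replicate 1 gave -0.10, and leaving out Olfm4CKO replicate 2 gave 1.05, so the sign rested on that 1 library of high Dusp1. Of 12 glucocorticoid-induced genes, 3 had a log2 fold change above 0, against 48.6% of all genes tested. Their median was -0.42 with 0 called, and some stood apart in another library. Fkbp5, a chaperone of the glucocorticoid receptor, had 11.04 and 4.07 CPM in Olfm4CKO and 120.2 and 4.27 CPM in Ctrl replicates 1 and 2. Per1, of the same list, had 82.7 and 133 CPM in Olfm4CKO and 66.4 and 44.8 CPM in Ctrl. The part of glucocorticoid signals in the Dusp1 values was not tested.

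Dusp4 encodes a nuclear phosphatase of ERK and JNK that ERK itself induces (chromosome 8, 34807610 to 34819894). It had 25.5 and 182 CPM in Olfm4CKO replicates 1 and 2 and 129 and 145 CPM in Ctrl replicates 1 and 2. The lowest and the highest library were both Olfm4CKO, 7.14-fold apart, while the Ctrl libraries were 1.13-fold apart. The lowest value rested on 395 counts. On log2(CPM + 0.5), the Olfm4CKO libraries differed by 2.81, and 28 of the 13573 tested genes (0.206%) differed between them by as much or more. The log2 fold change was -0.40 ± 0.66 (SE, n = 2 each, edgeR adjusted p = 0.9998). Leaving out Olfm4CKO replicate 1 gave 0.43, and leaving out Olfm4CKO replicate 2 gave -2.43, where the edgeR adjusted p of 0.0844 also missed the threshold.

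Dusp6 encodes a cytoplasmic phosphatase selective for ERK (chromosome 10, 99263231 to 99267489). It had 38.4 and 88.0 CPM in Olfm4CKO replicates 1 and 2 and 54.5 and 73.4 CPM in Ctrl replicates 1 and 2. As for Dusp4, the lowest and the highest library were both Olfm4CKO, with replicate 1 the lower. The log2 fold change of -0.02 ± 0.42 (SE, n = 2 each, edgeR adjusted p = 0.9998) averages these, and its 95% interval ran from 0.52-fold to 1.9-fold. It was 0.48 without Olfm4CKO replicate 1, -0.74 without Olfm4CKO replicate 2 and 0.23 without Ctrl replicate 2, so no direction can be given.

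Dusp5 encodes a nuclear phosphatase selective for ERK (chromosome 19, 53529145 to 53541809). It had 3.10 and 2.73 CPM in Olfm4CKO and 1.94 and 2.67 CPM in Ctrl. Both Olfm4CKO values lay above both Ctrl values, though the nearest of them, 43 counts in Olfm4CKO replicate 2 and 45 counts in Ctrl replicate 2, are alike. The log2 fold change was 0.34 ± 0.56 (SE, n = 2 each, edgeR adjusted p = 0.9998).

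Within the DUSP members, Olfm4CKO replicate 1 differed in composition more than in sum. The 4 phosphatases summed to 91.0 and 126 RPKM in Olfm4CKO replicates 1 and 2 and to 91.2 and 117 RPKM in Ctrl replicates 1 and 2. Dusp1 made up 74.9% of that sum in Olfm4CKO replicate 1 and 23.9% in Olfm4CKO replicate 2, and 28.6% and 33.6% in Ctrl. Dusp4 made up 10.2% and 52.9% in Olfm4CKO and 51.5% and 45.4% in Ctrl. These shares do not depend on how libraries are scaled to each other, but they do depend on the length taken for each gene. With the union of a gene's exons as the length, Dusp4 was the largest share in the other 3 libraries, so by this measure the difference lay in 1 library. With the longest transcript as the length, the mean of Dusp1 over the libraries was 58.5 RPKM against 44.0 RPKM for Dusp4. Which of them is the larger share can therefore change with the length.

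**Figure D2:**
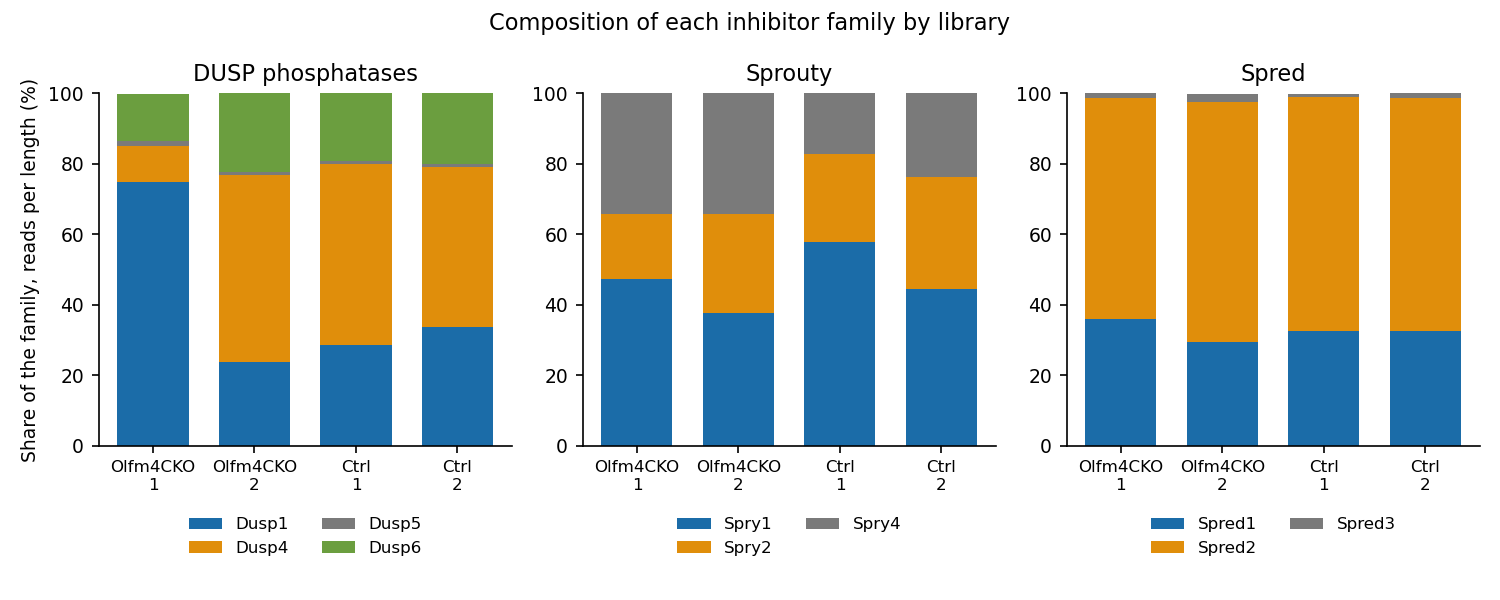
Share of each member in its family in each library, from reads per length, with Olfm4CKO left of Ctrl. Dusp1 takes 74.9% of the DUSP sum in Olfm4CKO replicate 1, and Spry4 takes 34.2% and 34.3% of the Sprouty sum in Olfm4CKO against 17.3% and 23.8% in Ctrl.

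Some early response transcripts and marker sums also differed between the Olfm4CKO libraries, and the library farthest from Ctrl was not the same for each. The early response receptor Nr4a1 had 76.7 and 898 CPM in Olfm4CKO replicates 1 and 2 and 201 and 482 CPM in Ctrl, lowest and highest in the same libraries as Dusp4 and Dusp6. Its relative Nr4a2 had 18.3 and 197 CPM in Olfm4CKO and 16.97 and 47.0 CPM in Ctrl. Nr4a3, the remaining gene of that family, had 22.8 and 148 CPM in Olfm4CKO and 11.2 and 27.04 CPM in Ctrl. For these last genes Olfm4CKO replicate 2 stood above the other libraries and Olfm4CKO replicate 1 lay within the Ctrl range, as it did not for Dusp4 and Dusp6. The early response factor Egr3 had 3.94 and 19.9 CPM in Olfm4CKO and 4.26 and 7.17 CPM in Ctrl, also highest in Olfm4CKO replicate 2. The early response transcription factor Fos had 56.5 and 17.6 CPM in Olfm4CKO and 41.2 and 24.9 CPM in Ctrl. Egr1, another, had 113 and 41.7 CPM in Olfm4CKO and 81.3 and 51.5 CPM in Ctrl. Fos and Egr1 were highest in the library with the highest Dusp1 level, and lowest in Olfm4CKO replicate 2. Skeletal muscle markers, 9 of 9 present, summed to 257 and 48.1 CPM in Olfm4CKO and 113 and 57.7 CPM in Ctrl. Brown adipocyte markers, 8 of 8 present, summed to 16170.0 and 9163 CPM in Olfm4CKO and 16120.0 and 20170.0 CPM in Ctrl. No list had a marker at 0 in all 4 libraries. The part of tissue make-up in the Dusp1 and Dusp4 values was not tested.

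**Figure D3:**
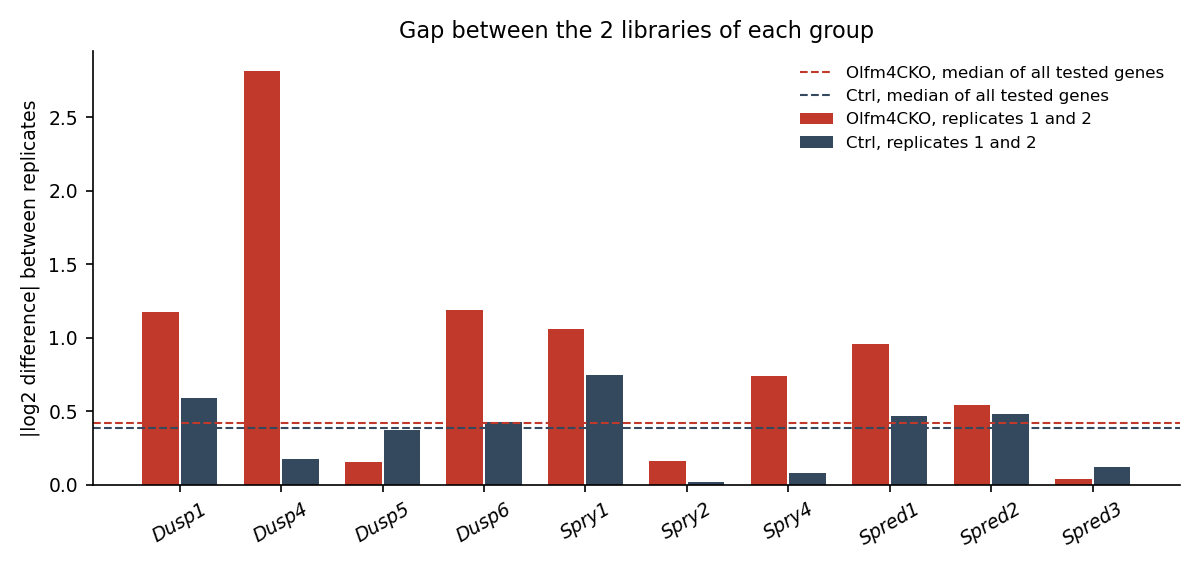
Absolute log2 difference of normalised CPM (pseudocount 0.5) between replicates 1 and 2 of each group for the 10 members, with Olfm4CKO left of Ctrl and dashed lines at the medians of all tested genes, 0.42 in Olfm4CKO and 0.39 in Ctrl. Dusp4 in Olfm4CKO, at 2.81, has the tallest bar, and Dusp5, Spry2 and Spred3 lie below the medians in both groups.

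Spry4 was the member with the smallest p. Sprouty proteins are induced by growth factor signals and block the path from receptors to RAS and RAF (Spry4: chromosome 18, 38586247 to 38601347). It had 41.9 and 24.9 CPM in Olfm4CKO replicates 1 and 2 and 16.4 and 17.4 CPM in Ctrl replicates 1 and 2. Both Olfm4CKO libraries lay above both Ctrl libraries, and the Ctrl libraries were 1.06-fold apart against 1.69-fold for Olfm4CKO. The log2 fold change was 0.98 ± 0.36 (SE, n = 2 each), with a 95% interval of 1.13-fold to 3.45-fold that is not adjusted for the number of genes. By p, Spry4 ranked 107 among the 13573 genes in edgeR, and it did not pass (adjusted p = 0.9998). Leaving out Olfm4CKO replicate 1 gave 0.58, and leaving out Ctrl replicate 1, where Ddx3y was found, gave 0.94. Ctrl replicate 2 also differed from Olfm4CKO in Xist, and the part of sex in the Spry4 values was not tested. As a share of the Sprouty sum it was 34.2% and 34.3% in Olfm4CKO, against 17.3% and 23.8% in Ctrl.

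Endothelial markers lay on the same side of 0 as Spry4. Of 10 tested markers, 10 had a log2 fold change above 0, against 48.6% of all genes tested, with 0 called. Their summed level was 1801 and 1548 CPM in Olfm4CKO and 1214 and 1047 CPM in Ctrl. The median over these markers was 0.55, against 0.98 for Spry4. Skeletal muscle markers lay above 0 too, 9 of 9 with a median of 1.445 and 0 called, though their sums overlapped between the groups. Mural cell markers summed to 801 and 730.1 CPM in Olfm4CKO and 873 and 673 CPM in Ctrl, with overlapping groups. Schwann cell markers, the cell type named in the series title, lay on the other side, with 9 of 10 below 0, 0 called and sums of 219 and 174 CPM in Olfm4CKO and 305 and 529 CPM in Ctrl. The part of cell make-up in the Spry4 values was not tested.

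Spry1 and Spry2 gave values near 0 on the fold change scale. Spry1 (chromosome 3, 37639947 to 37644599), which limits RET signals in the developing mouse kidney, had 35.4 and 16.7 CPM in Olfm4CKO and 33.6 and 19.9 CPM in Ctrl. Each group held 1 high and 1 low library, the gap within a group exceeded the gap between means, and the log2 fold change was -0.04 ± 0.43 (SE, n = 2 each, edgeR adjusted p = 0.9998). Spry2 (chromosome 14, 105891947 to 105896819), a broadly expressed Sprouty, was the steadiest of the 10, at 10.01 and 8.90 CPM in Olfm4CKO and 10.3 and 10.2 CPM in Ctrl. The highest and lowest of its 4 libraries were 1.16-fold apart. Both Olfm4CKO values lay below both Ctrl values by a small margin, with a log2 fold change of -0.12 ± 0.38 (SE, n = 2 each, edgeR adjusted p = 0.9998).

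Spred1 (chromosome 2, 117121071 to 117182279) and Spred2 (chromosome 11, 19924442 to 20024026) suppress the RAS to RAF step. Spred1 had 35.2 and 17.9 CPM in Olfm4CKO and 23.0 and 16.4 CPM in Ctrl. Spred2 had 41.5 and 28.2 CPM in Olfm4CKO and 31.9 and 22.7 CPM in Ctrl. For both genes Olfm4CKO replicate 1 was the highest library and Olfm4CKO replicate 2 lay between both Ctrl libraries, so the groups overlapped. Their log2 fold changes were 0.43 ± 0.40 and 0.35 ± 0.36 (SE, n = 2 each, edgeR adjusted p = 0.9998 for each). Without Olfm4CKO replicate 1 these were -0.12 and 0.07. Spred2 held 62.5% and 68.3% of the Spred sum in Olfm4CKO and 66.4% and 66.2% in Ctrl, so the proportion of the Spred genes moved little.

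Spred3 (chromosome 7, 29157783 to 29170070), a weaker inhibitor of ERK than Spred1 and Spred2 in cell assays, was the scarcest of the 10. It had 19 and 20 counts in Olfm4CKO and 10 and 9 counts in Ctrl, or 1.23 and 1.27 CPM against 0.626 and 0.534 CPM. Both Olfm4CKO libraries lay above both Ctrl libraries. The gene passed the filter on low counts only through Olfm4CKO, with its Ctrl counts at or below the minimum of 10. Being higher in Olfm4CKO therefore adds no support for a difference. Summed over libraries the ratio of counts was 2.21, with an exact 95% interval of 1.25 to 4.05 that covers counting error only. The edgeR fit, which includes the spread between libraries, gave a log2 fold change of 1.10 ± 0.72 (SE, n = 2 each, adjusted p = 0.9998) and an interval that includes no change. In RefSeq the gene overlaps Ggn, which had 15 and 6 counts in Olfm4CKO and 12 and 10 counts in Ctrl. Whether counting used strand is not stated, and reads from the shared stretch cannot be assigned with certainty.

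**Figure D4:**
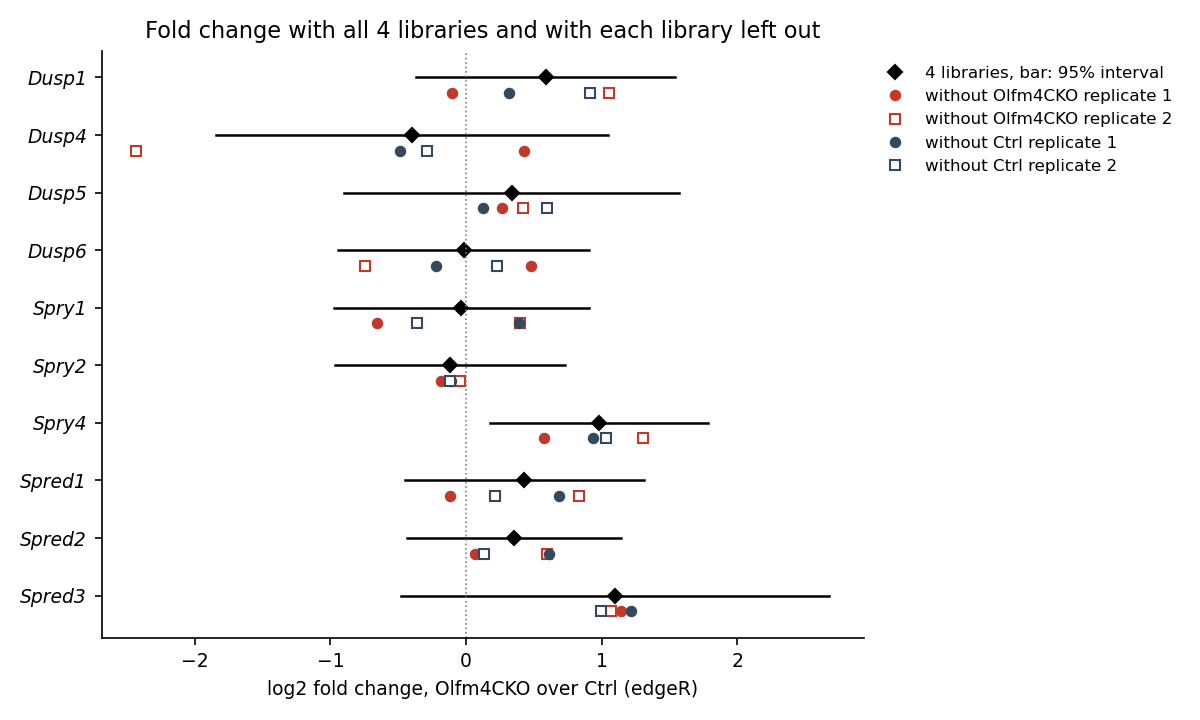
log2 fold change of Olfm4CKO over Ctrl for each member in edgeR, with diamonds and 95% interval bars for the fit on 4 libraries, and red or blue points for fits without 1 library of Olfm4CKO or Ctrl. Spry4 and Spred3 stay above 0 in each fit, at 0.58 to 1.31 and 1.00 to 1.21, while Dusp4 runs from -2.43 to 0.43.

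Other MAP kinase phosphatases mostly had higher mean values in Olfm4CKO. Of 8 tested, 7 had a log2 fold change above 0, with a median of 0.58, against 48.6% and -0.01 over all genes. None passed (0 called in edgeR), and 3 had an unadjusted p below 0.05, against 2.11% of all genes tested. Dusp16, a phosphatase of JNK and p38, had 30.2 and 29.7 CPM in Olfm4CKO and 14.4 and 12.2 CPM in Ctrl, a log2 fold change of 1.17 ± 0.33 (SE, n = 2 each, edgeR adjusted p = 0.9998). Dusp7, a cytoplasmic phosphatase of ERK closely related to Dusp6, had 52.8 and 74.5 CPM in Olfm4CKO and 31.9 and 33.9 CPM in Ctrl. Dusp8, which acts on JNK and p38, had 19.6 and 24.0 CPM in Olfm4CKO and 6.32 and 13.3 CPM in Ctrl. For these 3 genes both Olfm4CKO libraries lay above both Ctrl libraries, but they were picked by their p, so this adds no support.

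Fold changes of the cascade that these inhibitors act on lay close to 0 on the log2 scale. Of 19 RAS, RAF, MEK and ERK genes with their adaptors, 8 had a log2 fold change above 0 and 11 below, with a median of -0.01 and 0 called, and 0 had an unadjusted p below 0.05. Other brakes on RAS and ERK, such as neurofibromin (Nf1, 0.23 ± 0.39 SE), had 7 of 11 above 0, a median of 0.05 and 0 called, with 0 at an unadjusted p below 0.05. Transcripts used as ERK readouts, 4 of them members, had 6 of 15 above 0, a median of -0.03 and 0 called. At an unadjusted p below 0.05 there were 4 of the 15, against 2.11% of all genes tested. These were Spry4, Fosl1, Epha2 and Plaur, all higher in Olfm4CKO. Fosl1, an AP-1 transcription factor, had 13 and 11 counts in Olfm4CKO and 0 and 1 counts in Ctrl. It passed the filter on low counts only through Olfm4CKO, so being higher there adds no support. The guidance receptor Epha2 had 28.1 and 17.1 CPM in Olfm4CKO and 11.3 and 8.42 CPM in Ctrl. Plaur, the urokinase receptor, had 9.30 and 5.21 CPM in Olfm4CKO and 2.07 and 2.96 CPM in Ctrl. For each of these genes both Olfm4CKO libraries lay above both Ctrl libraries, but they were picked by their p, so this adds no support. Immediate early genes had 16 of 18 above 0, against 48.6% of all genes tested, with a median of 0.59 and 0 called. At an unadjusted p below 0.05 there were 4 of the 18, against 2.11% of all genes tested. Srf, the factor that binds CArG boxes, had 76.3 and 109 CPM in Olfm4CKO and 35.9 and 58.9 CPM in Ctrl. Its edgeR adjusted p was 0.9998, and it was picked by its p, so being higher in Olfm4CKO adds no support.

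The gene whose levels over the 4 libraries were most like those of each member was found by the root mean square difference of centred log2(CPM + 0.5) values. For Dusp4 it was Echdc1, which encodes an enzyme that clears a side product of fatty acid synthesis, at a difference of 0.15. Echdc1 had 6.91 and 42.0 CPM in Olfm4CKO and 39.2 and 39.0 CPM in Ctrl. For Dusp1 it was Prkrip1 at 0.04, for Dusp6 Ppp1r3d at 0.02 and for Spry1 Fastkd5 at 0.02. No match is named for the other members, since several of their nearest genes had so few reads that the added 0.5 CPM shapes the difference. These names are a description over 4 libraries and 13573 tested genes.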

How the data were processed

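The authors deposited 1 table of whole-number read counts per gene, named for FPKM. Its columns sum to different totals, so the values were taken as raw counts as deposited. The submitters' processing notes name cutadapt 1.11, HISAT2 2.1.0, featureCounts 1.6.0 and mm10. For annotation and strandedness, the setting is not given in the sources used here. The replicate 3 columns, blank in 11702 rows, do not follow the gene names and were left out of every gene value. A row broken over 3 lines and 27 symbols turned into dates are not reported.

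Counts of 4 libraries were fitted in edgeR 4.0.16 under R 4.3.3 (filterByExpr with a minimum count of 10 and a total of 15, TMM scaling, quasi-likelihood test on group, Benjamini-Hochberg over 13573 genes). Normalised CPM uses TMM library sizes. SE is the log2 fold change over the square root of F. RPKM divides by the union of exons in GENCODE vM21, the GRCm38 assembly of mm10. The biological coefficient of variation was 32.6%. An exact permutation test of 2 libraries against 2 cannot reach 0.05, and none was run. DESeq2 1.42.0 and limma-voom 3.58.1 were alternatives. The pipeline was tested on simulated data. Libraries of a group were no duplicates: chi-square over degrees of freedom was 142 in Olfm4CKO and 91.9 in Ctrl. The members and gene lists were chosen with earlier results of these data known. Named genes are the members, up to 3 genes of each companion list with the smallest p, the first genes of each marker list and the nearest patterns. Of these, those beside a member's result are printed, and a few are not reported here. Chosen outside that rule with values known were Nr4a1, Nr4a2, Egr3, Fos, Egr1, Nf1 and Ggn.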

Additional observations from a re-analysis of the deposited data

How the results depend on the processing

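No member passed in any alternative that was run: 0 of the members in each of 11 alternatives, with edgeR adjusted p of 0.0844 (Dusp4 without Olfm4CKO replicate 2) or above. DESeq2 called 1 gene of all where the reported fit called 0, and 6 to 27 genes were called when 1 library was left out. With the replicate number as a block 4 genes were called. Same-numbered libraries did not deviate together (correlation 0.00269 over genes), so the number pairs nothing here. No gene was called without a filter, with a mean CPM of at least 1, with RLE scaling, with total counts alone or with limma-voom. Of 109 values of members under alternatives, 101 kept their sign. The other 8 were Dusp6 with total counts alone (0.026) and 7 fits without 1 library: over those fits Dusp1 ran from -0.10 to 1.05, Dusp4 from -2.43 to 0.43, Dusp6 from -0.74 to 0.48, Spry1 from -0.66 to 0.40 and Spred1 from -0.12 to 0.83. With limma-voom and the block, Dusp4 was -1.004 and -0.998. Spred3 was not tested with a mean CPM of at least 1. Where 1 library was left in a group, its spread was taken from the other group. The cause of these shifts was not tested. Spred3 and Dusp5 had the fewest counts, and for both the interval of the fit was wider than the counting interval.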
